A study of Mus musculus with 24 samples.

Results

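The transcripts described here are those of 9 genes of the interleukin-1 family and the inflammasome: Il1a, Il1b, Il1rn, Il1r2, Il1rap, Il18, Il18bp, Casp1 and Nlrp3. They were picked by gene symbol from a deposited table of 37979 genes, each symbol stood on 1 row, and none of the 9 was at 0 in any library. All 9 were among the 17156 genes tested, those averaging 1 FPKM or more in some group. FPKM is a count of fragments scaled to transcript length and to the mapped fragments of the library. The study sorted macrophages and monocytes from the lungs of male C57BL/6 mice aged 10 to 16 weeks, with 24 libraries in 8 groups of 3. The tumour groups came from mice injected in the left lung lobe with LLC-Luc cells, a luciferase-marked mouse lung carcinoma line from the C57BL/6 strain, suspended in Matrigel. Cells were taken 2 weeks after injection (MacA-2wk, MacB2-2wk, MacB3-2wk) or 3 weeks after it (MacB2-3wk, MacB3-3wk). MacA-N, MacB1-N and MacB2-N came from uninjected, naive mice. MacA cells were gated as SiglecF+/CD11c+, and all MacB cells as CD11b+ and Ly6G-. Within these, MacB1 was CD64 low and CD11c+, MacB2 CD64 medium and CD11c-, and MacB3 CD64 high and CD11c+. Each library held cells pooled from 3 to 5 mice, and the 3 replicates of each group were independent experiments.

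Interleukin-1α and interleukin-1β both act on the type 1 interleukin-1 receptor, which signals together with the accessory protein encoded by Il1rap. The receptor antagonist encoded by Il1rn occupies the same receptor without signalling, and the decoy receptor encoded by Il1r2 binds ligand without signalling. Interleukin-1β and interleukin-18 are made as inactive precursors that caspase-1 cleaves inside an inflammasome such as the one built on NLRP3, and the binding protein encoded by Il18bp holds interleukin-18 in check. In macrophages Il1b is known as a transcript induced by inflammatory signals, and alveolar macrophages are the resident phagocytes of the airspace. Transcript levels do not show how much precursor was cleaved or released.

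In GRCm38, with the GENCODE M21 annotation, Il1b (ENSMUSG00000027398, chromosome 2, 129364570 to 129371139, minus strand) and Il1a (ENSMUSG00000027399, chromosome 2, 129299610 to 129309972, minus strand) are neighbours. Il1rn (ENSMUSG00000026981, chromosome 2, 24336853 to 24351494, plus strand) lies on the same chromosome, apart from them. The promoters of these 3 genes are shown because their transcripts moved apart from each other between the groups. Each line gives the 250 bases before a RefSeq start (GRCm38.p6), 5′ to 3′ on the strand of the gene, with TATAAA and TGANTCA matches in capitals. RefSeq lists 3 starts for Il1rn, of which the first 2 are shown.
Il1b, chr2:129371140-129371389: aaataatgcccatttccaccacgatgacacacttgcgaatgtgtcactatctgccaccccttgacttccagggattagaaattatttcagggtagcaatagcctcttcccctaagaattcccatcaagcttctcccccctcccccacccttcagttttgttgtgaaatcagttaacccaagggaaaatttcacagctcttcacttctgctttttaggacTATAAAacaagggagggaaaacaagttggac
Il1a, chr2:129309973-129310222: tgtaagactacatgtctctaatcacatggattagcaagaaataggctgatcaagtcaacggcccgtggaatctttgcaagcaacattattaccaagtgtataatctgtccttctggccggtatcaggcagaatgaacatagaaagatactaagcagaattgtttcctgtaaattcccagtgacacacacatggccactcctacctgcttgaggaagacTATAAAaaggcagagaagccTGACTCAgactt
Il1rn start 1, chr2:24336610-24336859: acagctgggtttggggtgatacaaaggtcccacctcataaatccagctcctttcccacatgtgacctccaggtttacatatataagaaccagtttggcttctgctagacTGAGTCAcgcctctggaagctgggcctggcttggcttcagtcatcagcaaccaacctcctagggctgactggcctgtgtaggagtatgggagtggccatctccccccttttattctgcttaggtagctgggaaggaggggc
Il1rn start 2, chr2:24345041-24345290: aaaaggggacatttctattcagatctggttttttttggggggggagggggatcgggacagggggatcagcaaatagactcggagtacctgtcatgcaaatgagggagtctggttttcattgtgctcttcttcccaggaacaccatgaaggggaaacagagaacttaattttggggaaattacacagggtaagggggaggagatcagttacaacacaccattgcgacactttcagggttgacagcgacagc

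The search covered both strands of 12 windows of the 9 genes and of 32851 RefSeq windows of this length. TATAAA, the core of a TATA box, began 31 bases before the start of Il1b and 32 bases before that of Il1a. It was absent from the Il1rn windows. In the Il18 window it was met on the other strand, 175 bases before the start. It occurred in 3 of the 12 windows and in 12.4% of all windows. TGANTCA, the letters of an AP-1 site, began 12 bases before the Il1a start and 141 bases before the first Il1rn start, and occurred in 6.75% of all windows. The consensus of NF-kB, searched as a fixed pattern of letters, was met in 1 Nlrp3 window, against 3.9% of all windows. TTCNNNGAA, a GAS element, was met in the Il1r2 window, against 7.02%, and an IRF element, searched by its name, in 0 of the 12 windows, against 2.98%. A match describes letters and no match says only that these letters are not in the window.

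The remaining members lie on other chromosomes. Il1r2 (ENSMUSG00000026073) is on chromosome 1 at 40074079 to 40125231, and Il1rap (ENSMUSG00000022514) on chromosome 16 at 26581704 to 26730117. Il18 (ENSMUSG00000039217) is on chromosome 9 at 50554827 to 50581840, the same chromosome as Casp1 (ENSMUSG00000025888) at 5298517 to 5307265. Il18bp (ENSMUSG00000070427) is on chromosome 7 at 102014885 to 102018690, and Nlrp3 (ENSMUSG00000032691) on chromosome 11 at 59541568 to 59566956. Another annotated gene overlaps 6 of the 9: Il1a, Il1b, Il1r2, Il1rap, Il18 and Il18bp. The sources used here do not say whether counting used the strand, so reads from Il1b and its antisense partner Il1bos, or from Il18bp and Numa1 on the opposite strand, cannot be told apart.

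Each library had 15599 to 18522 genes above 0, and for 22 of the 24 the most similar library was 1 of the same group. Absolute depth is unknown in FPKM. The most common ratio between the low values of a library and those of a reference library gave a relative depth of 0.521 to 1. Only a share of 0.107 to 0.157 of these values lay at that ratio, so the estimate is rough. Tumour cells came from the left lobe and naive cells from all lobes, so tumour and lobe cannot be told apart. Sequencing lane 1 held every MacA library, while lanes 2, 3 and 7 held those of MacB, so in any comparison of MacB with MacA the population and the lane cannot be told apart. The alveolar macrophage markers (8 genes) summed to 6039 to 8265 FPKM in the MacA libraries and to 142 to 1212 FPKM in the MacB libraries. Markers of other cells were present. The epithelial sum (7 genes) was 649 to 5322 FPKM in MacA-N, 3077 to 12859 FPKM in MacB1-N and 3114 to 10295 FPKM in MacB2-N. It was 119 to 2445 FPKM in the tumour libraries. MacA-2wk replicate 3 had a fibroblast sum (8 genes) of 261 FPKM, against 27.8 to 32.8 FPKM in the other MacA-2wk libraries. MacB2-N replicate 3 had an endothelial sum (8 genes) of 432 FPKM, against 119 and 124 FPKM in the other MacB2-N libraries.

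Up to 5 of the 9 members were called between populations, and up to 2 between tumour-bearing and naive lung. A gene was called when limma, fitted to log2(FPKM + 1) of all 24 libraries, gave a Benjamini-Hochberg adjusted p under 0.05 and a fold of at least 2. In MacB1-N against MacA-N, where 23.7% of all tested genes were called, 5 of the 9 members were: 2 higher (15% of all genes) and 3 lower (8.71%). In MacB2-N against MacA-N (20.9% of all genes) 5 were called, 2 higher (10.7%) and 3 lower (10.2%). In MacB1-N against MacB2-N (5.21%) 1 member was higher (3.5%). In MacB3-2wk against MacA-2wk (14.5%) 4 were called, 2 higher (7.2%) and 2 lower (7.28%). In MacB3-2wk against MacB2-2wk (7.36%) 4 were called, 3 higher (3.15%) and 1 lower (4.21%), and in MacB3-3wk against MacB2-3wk (2.64%) 2 were lower (1.03%). Tumour-bearing against naive lung gave 1 member higher in MacB2-2wk (1.88% of all genes, 1.66% higher) and 2 higher in MacB2-3wk (14.7%, 9.67% higher). In MacA-2wk against MacA-N limma called 0 members (0.787% of all genes), and 3 had an unadjusted p under 0.05. Between the weeks limma called 0 members in MacB2-3wk against MacB2-2wk (4.34%), with 1 at an unadjusted p under 0.05, and 0 in MacB3-3wk against MacB3-2wk (0.315%), with 2. The percentages are shares of called genes. The share of all genes with an unadjusted p under 0.05 was not counted.

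The libraries of both groups did not overlap for 5 members in MacB1-N against MacA-N (46.7% of all genes), 5 in MacB2-N against MacA-N (39.5%) and 2 in MacB1-N against MacB2-N (22.2%). In tumour-bearing lung it was 6 members in MacB3-2wk against MacB2-2wk (28.1%), 4 in MacB3-3wk against MacB2-3wk (24.1%) and 5 in MacB3-2wk against MacA-2wk (32.1%). With tumour against naive lung it was 2 in MacA-2wk (14.6%), 2 in MacB2-2wk (16.5%) and 4 in MacB2-3wk (33.8%). Between weeks it was 1 in MacB2 (25%) and 2 in MacB3 (16.4%). Each percentage is the share of all tested genes without overlap in that comparison. Comparisons that name the same group share its 3 libraries and are not independent.

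**Figure D1:**
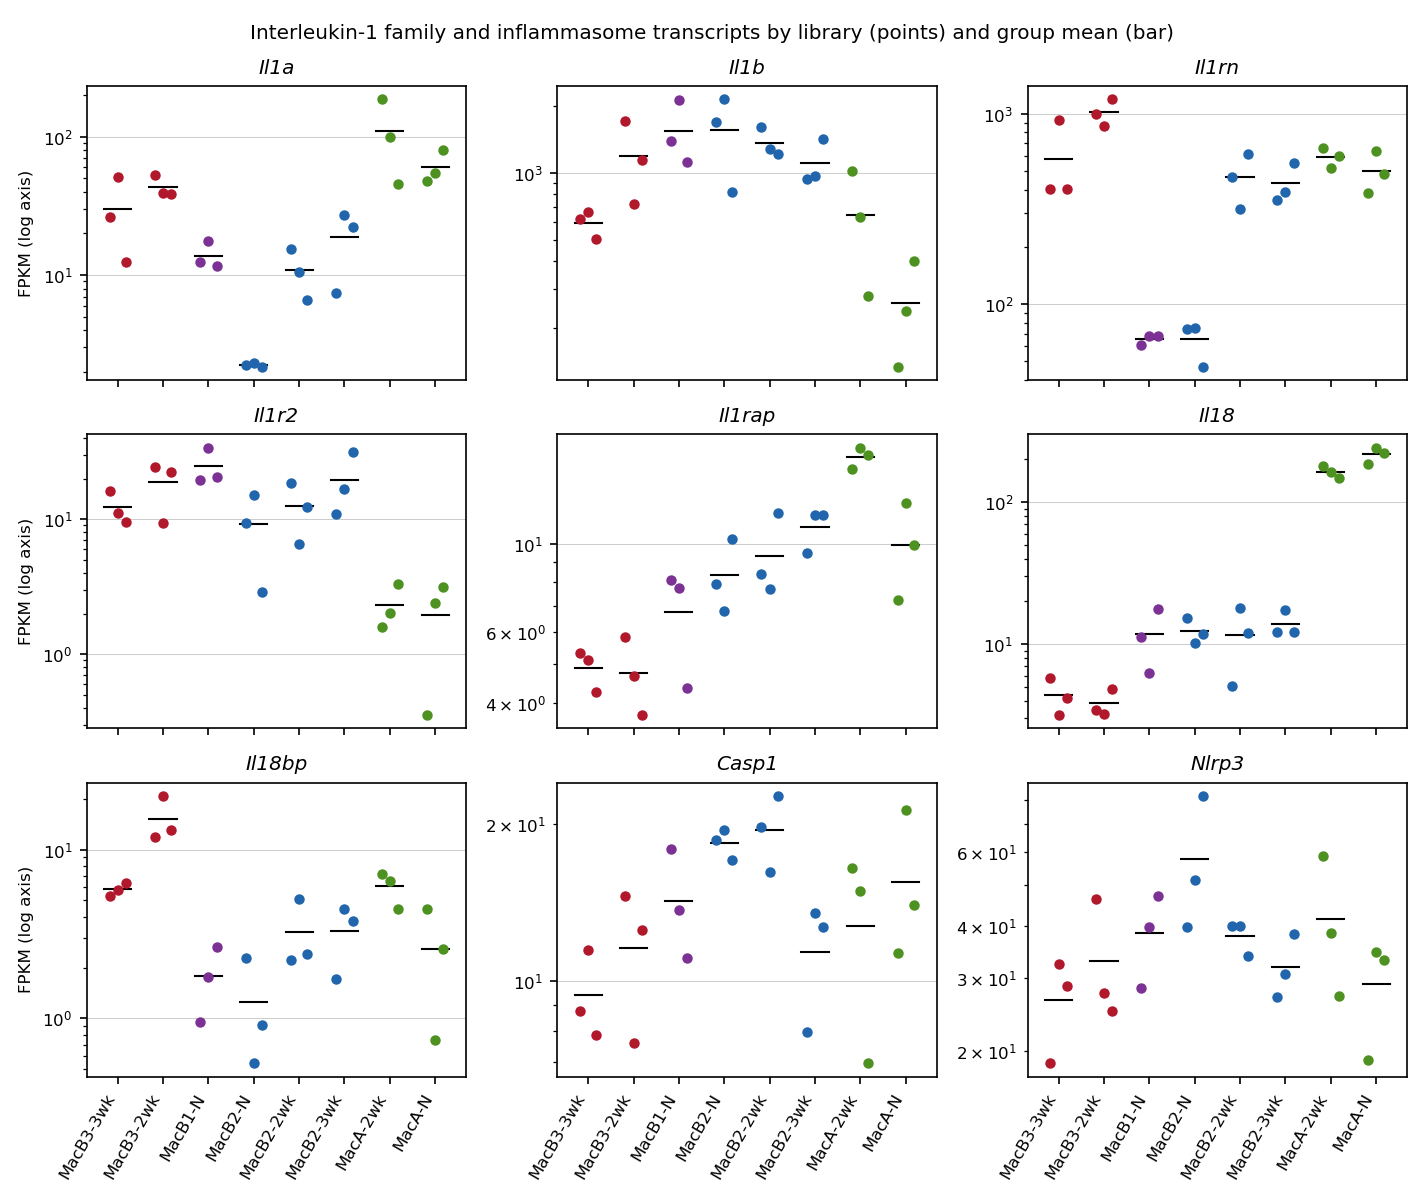
FPKM of the 9 members (log axes that do not start at 0) in the 24 libraries, with 1 panel a gene, 3 points a group for replicates 1 to 3 and a bar for the group mean; colours mark the populations. Il18 stands apart in the MacA groups, Il1rn is lowest in MacB1-N and MacB2-N, and Casp1 and Nlrp3 overlap between all groups next to each other in order of mean.

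Il1b had the highest group mean FPKM of the 9 transcripts in every MacB group, and the test did not separate tumour-bearing from naive MacB2 cells by it. It had 936, 964 and 1425 FPKM in MacB2-3wk and 1602, 1283 and 1221 FPKM in MacB2-2wk, against 1702, 2141 and 819.8 FPKM in MacB2-N. The 3 groups overlapped, with the lowest and the highest value both in MacB2-N. The log2 difference was -0.08 ± 0.46 (SE) for MacB2-2wk and -0.41 ± 0.46 for MacB2-3wk against MacB2-N. Their 95% intervals, -1.05 to 0.88 and -1.37 to 0.56, cover 0 and reach past a 2-fold decrease. In MacA cells Il1b had 1020.5, 629.7 and 279.6 FPKM in MacA-2wk, against 134, 238 and 402 FPKM in MacA-N. The highest MacA-N library lay above the lowest MacA-2wk library, and the log2 difference of 1.27 ± 0.46 had an adjusted p of 0.283 in limma. The MacA-2wk library with the lowest Il1b, replicate 3, is the one with the high fibroblast sum. It also had the highest endothelial sum of its group (217 against 42.7 and 46.0 FPKM). The same held for the epithelial (817 against 119 and 148 FPKM) and neutrophil sums (279 against 138 and 107 FPKM). The part of these markers in the value was not tested.

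Across naive populations Il1b was higher in the MacB cells. MacB1-N had 1384.5, 2129.5 and 1120.3 FPKM and MacB2-N the values above, all over the highest MacA-N library at 402 FPKM. The log2 fold change was 2.67 ± 0.46 (limma adjusted p = 1.81e-04) for MacB1-N and 2.62 ± 0.46 (adjusted p = 2.14e-04) for MacB2-N against MacA-N. Both calls held in all 12 alternative fits. In tumour-bearing lung Il1b did not separate MacB3 from MacB2 by the test. MacB3-3wk had 619, 668 and 501 FPKM, all below the MacB2-3wk libraries, but the log2 difference of -0.88 ± 0.46 had an adjusted p of 0.387. MacB3-2wk had 1714, 722 and 1139 FPKM and overlapped MacB2-2wk. It also overlapped MacA-2wk (log2 difference 0.99 ± 0.46, adjusted p = 0.145), a difference called without MacA-2wk replicate 1 (0.0486, in a range of 0.0486 to 0.580).

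Il1a, the ligand that is active without cleavage, followed another order. By group mean it was highest in MacA-2wk at 110 ± 70.8 FPKM and in MacA-N at 60.8 ± 17.4 FPKM, and lowest in MacB2-N at 2.25 ± 0.07 FPKM (SD, n = 3 each). In between came MacB3-2wk, MacB3-3wk, MacB2-3wk, MacB1-N and MacB2-2wk in descending order, and of the 7 steps in this order only the last, to MacB2-N, had no overlap between neighbours. Il1a had 7.45, 27.1 and 22.2 FPKM in MacB2-3wk, against 2.26, 2.31 and 2.18 FPKM in MacB2-N. All MacB2-3wk libraries lay above MacB2-N, and Il1a rose by a log2 fold change of 2.44 ± 0.50 (limma adjusted p = 0.00166), a call that held in all 13 alternative fits. At 2 weeks MacB2-2wk had 15.5, 10.6 and 6.65 FPKM, also without overlap with MacB2-N. That log2 difference of 1.81 ± 0.50 missed the threshold (adjusted p = 0.0712, and 0.0289 with a pseudocount of 0.1, within a range of 0.0289 to 0.184 over all fits). In MacA cells it had 186, 98.8 and 45.9 FPKM in MacA-2wk, against 47.6, 54.2 and 80.6 FPKM in MacA-N, which overlapped (log2 difference 0.67 ± 0.50, adjusted p = 0.687).

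Il1a also set the MacB populations apart. MacB3-2wk had 52.6, 38.9 and 38.5 FPKM, all above the MacB2-2wk libraries, for a log2 fold change of 1.95 ± 0.50 (limma adjusted p = 0.0170). Against MacA-2wk it was not called (-1.12 ± 0.50, adjusted p = 0.128), but was lower without MacA-2wk replicate 3 (0.0288, in a range of 0.0288 to 0.448). The call against MacB2-2wk was lost without MacB2-2wk replicate 3 (adjusted p = 0.0712) or MacB3-2wk replicate 1 (0.0632), and over all fits its adjusted p ran from 0.0143 to 0.0712. At 3 weeks MacB3-3wk, with 26.4, 50.8 and 12.5 FPKM, overlapped MacB2-3wk (log2 difference 0.60 ± 0.50, adjusted p = 0.665). In naive lung MacB1-N had 12.4, 17.5 and 11.6 FPKM, above every MacB2-N library by a log2 fold change of 2.17 ± 0.50 (adjusted p = 0.0112, and 0.0525 without MacB1-N replicate 2, in a range of 0.00477 to 0.0525). Against MacA-N, Il1a was lower in MacB1-N by a log2 fold change of -2.04 ± 0.50 (adjusted p = 0.00407) and in MacB2-N by -4.21 ± 0.50 (adjusted p = 2.24e-06). Dendritic cell markers (9 genes) summed to 287 to 393 FPKM in MacB1-N and 62.1 to 89.6 FPKM in MacB2-N. In MacA-N, where Il1a was higher than in both, they summed to 12.7 to 13.7 FPKM. Alveolar macrophage markers (8 genes) summed to 7027 to 8265 FPKM in MacA-N, 706 to 1212 FPKM in MacB1-N and 386 to 691 FPKM in MacB2-N. In MacB1-N against MacB2-N 4 of 8 alveolar and 2 of 8 tested dendritic genes were called higher. Their part in these differences was not tested.

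Il1rn, the receptor antagonist, was called higher with tumour in MacB2 cells at both weeks. It had 353, 389 and 551 FPKM in MacB2-3wk and 468, 315 and 614 FPKM in MacB2-2wk, against 74.0, 75.1 and 46.9 FPKM in MacB2-N. Every tumour library was above every naive one. Il1rn rose by a log2 fold change of 2.79 ± 0.31 (6.93-fold, limma adjusted p = 5.48e-05) at 2 weeks and of 2.71 ± 0.31 (6.53-fold, adjusted p = 4.81e-06) at 3 weeks. With a pseudocount of 0.1 the 3-week log2 fold change was 2.73 for Il1rn and 2.82 for Il1a, so their order depends on the pseudocount. Within single run lanes the log2 difference of Il1rn was 2.05 to 3.68 at 2 weeks and 2.24 to 3.53 at 3 weeks. The 2-week call was lost in a fit of the compared groups alone (adjusted p = 0.0838, in a range of 2.29e-05 to 0.0838 over all fits), and the 3-week call held in all 13 alternatives. In these bulk samples, fewer cells with a transcript and less transcript in each cell cannot be told apart.

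In MacA cells Il1rn was already at that level without tumour. It had 664, 520.4 and 602 FPKM in MacA-2wk, against 383, 637 and 481 FPKM in MacA-N. The groups overlapped (log2 difference 0.27 ± 0.31, limma adjusted p = 0.828). The difference between both responses, MacB2 minus MacA, was 2.52 ± 0.43 on the log2 scale (limma adjusted p = 0.0185), and Il1rn was the 1 member called, as higher, in this test, where 0.221% of all genes were called and 0.134% were higher. That call was lost in a fit of the compared groups alone (adjusted p = 0.103). It was also lost without MacA-N replicate 2 (0.0554), MacB2-2wk replicate 1 (0.0501) or MacB2-2wk replicate 3 (0.0621). Over all fits its adjusted p ran from 0.00777 to 0.103, with the difference between 2.29 and 2.77.

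**Figure D2:**
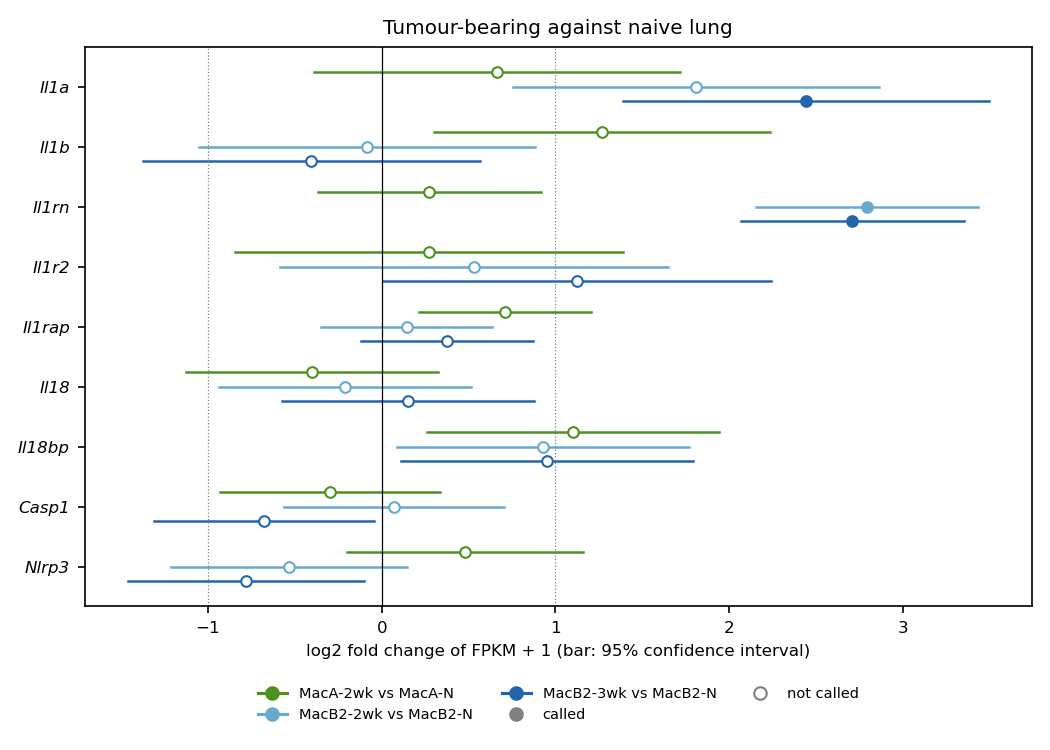
Log2 fold change of FPKM + 1 for the 9 members in MacA-2wk against MacA-N, MacB2-2wk against MacB2-N and MacB2-3wk against MacB2-N, with 95% confidence intervals; filled points were called, dotted lines mark a 2-fold change. Il1rn is called in both MacB2 comparisons at 2.79 and 2.71, Il1a in MacB2-3wk at 2.44, and no member is called in MacA-2wk.

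Markers of other cells, and those of monocytes themselves, moved with these MacB2 comparisons. The neutrophil list (14 genes) summed to 592 to 1402 FPKM in MacB2-3wk and 678 to 949 FPKM in MacB2-2wk, against 342 to 432 FPKM in MacB2-N. Mmp9 averaged 587 ± 396 FPKM in MacB2-3wk and 436 ± 184 FPKM in MacB2-2wk, against 19.7 ± 5.98 FPKM in MacB2-N (SD, n = 3 each). Without Mmp9 the other 13 genes summed to 297 to 366 FPKM in MacB2-3wk and 263 to 571 FPKM in MacB2-2wk, against 326 to 405 FPKM in MacB2-N, and these ranges overlapped. Of the 12 tested genes Mmp9, Lcn2 and S100a8 rose in MacB2-3wk, while Cd177 (29.2 ± 7.27 against 85.6 ± 14.9 FPKM) and Csf3r (66.8 ± 15.2 against 206 ± 10.6 FPKM) fell, and Mmp9 and Lcn2 rose in MacB2-2wk. The neutrophil gene Retnlg was at 0.967 to 3.29 FPKM in MacB2-3wk and 0 to 0.689 FPKM in MacB2-2wk, while each MacB2-N library had it listed at 0. The fibroblast list (8 genes, 5 of them higher in MacB2-3wk and 2 in MacB2-2wk) summed to 465 to 871 FPKM in MacB2-3wk and 118 to 166 FPKM in MacB2-2wk, against 21.6 to 50.0 FPKM in MacB2-N. The epithelial list (7 genes) had 2 genes higher and 2 lower in MacB2-3wk and 0 called in MacB2-2wk. Its sum was 609 to 864 FPKM in MacB2-3wk and 396 to 2445 FPKM in MacB2-2wk, both below the 3114 to 10295 FPKM in MacB2-N. Krt18 (39.8 ± 2.56 against 1.64 ± 0.54 FPKM) and Krt8 (11.5 ± 0.65 against 0.994 ± 0.87 FPKM) rose in MacB2-3wk, and Scgb1a1 (619 ± 122 against 6967 ± 3768 FPKM) and Sftpc fell. The monocyte list (8 genes) summed to 1526 to 1583 FPKM in MacB2-3wk and 2716 to 3040.4 FPKM in MacB2-2wk, against 3446 to 4398 FPKM in MacB2-N. Of its genes 4 fell in MacB2-3wk, Cx3cr1, Csf1r, Ly6c2 (798 ± 29.9 against 2503 ± 461 FPKM) and F13a1, and 0 were called in MacB2-2wk. In MacB2-3wk 4 of 8 tested dendritic genes (sum 15.8 to 29.7 against 62.1 to 89.6 FPKM) and 4 of 8 endothelial genes (sum 52.1 to 65.9 against 119 to 432 FPKM) were also lower. The alveolar macrophage list (8 genes) had 3 lower and 1 higher in MacB2-3wk (sum 178 to 375 against 386 to 691 FPKM) and 0 called in MacB2-2wk. The part of these markers in the Il1rn and Il1a differences was not tested.

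Il1rn was highest in MacB3-2wk, with 992, 865 and 1191 FPKM, and none of these libraries overlapped MacB2-2wk or MacA-2wk. Against MacB2-2wk it was higher by a log2 fold change of 1.17 ± 0.31 (limma adjusted p = 0.0190). With the replicate number as a block the adjusted p was 0.0502 in a fit of the MacB libraries, where the number is the run lane, and 0.0269 in a fit of all libraries. The call was also lost under quantile normalization (fold under 2), in a fit of the compared groups alone (0.0928), and without MacB2-2wk replicate 2 (0.106) or MacB3-2wk replicate 3 (0.0848), in a range of 0.0123 to 0.106. Against MacA-2wk the difference of 0.76 ± 0.31 had an adjusted p of 0.0861. At 3 weeks MacB3-3wk had 403, 928 and 404 FPKM and overlapped MacB2-3wk (log2 difference 0.33 ± 0.31, adjusted p = 0.705). MacB3-3wk was below MacB3-2wk in 2 of 3 libraries (log2 difference -0.92 ± 0.31, adjusted p = 0.273). In naive lung Il1rn was lower in both MacB groups than in MacA-N, with 60.8, 67.7 and 68.1 FPKM in MacB1-N. The log2 fold change was -2.88 ± 0.31 (adjusted p = 5.47e-07) for MacB1-N and -2.92 ± 0.31 (adjusted p = 4.22e-07) for MacB2-N.

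The ratio of Il1rn to Il1b in FPKM, taken within each library, gathers these values. Its median was 0.387 in MacB2-3wk (0.377 to 0.403) and 0.292 in MacB2-2wk (0.245 to 0.503), against 0.0435 in MacB2-N (0.0351 to 0.0572). It was 1.05 in MacB3-2wk (0.579 to 1.198) and 0.806 in MacB3-3wk (0.650 to 1.39). In MacA cells it was 0.826 in MacA-2wk (0.650 to 2.15), against 2.68 in MacA-N (1.197 to 2.86), and in MacB1-N it was 0.0439 (0.0318 to 0.0608). MacB2-2wk, MacB2-3wk and MacB3 libraries all lay above the naive MacB libraries, while MacA-2wk overlapped MacA-N. The ratio of Il1b to Il1a had a median of 64.2 in MacB2-3wk and 121 in MacB2-2wk, against 753 in MacB2-N, and of 6.10 in MacA-2wk, against 4.38 in MacA-N. These ratios are descriptions and were not tested.

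**Figure D3:**
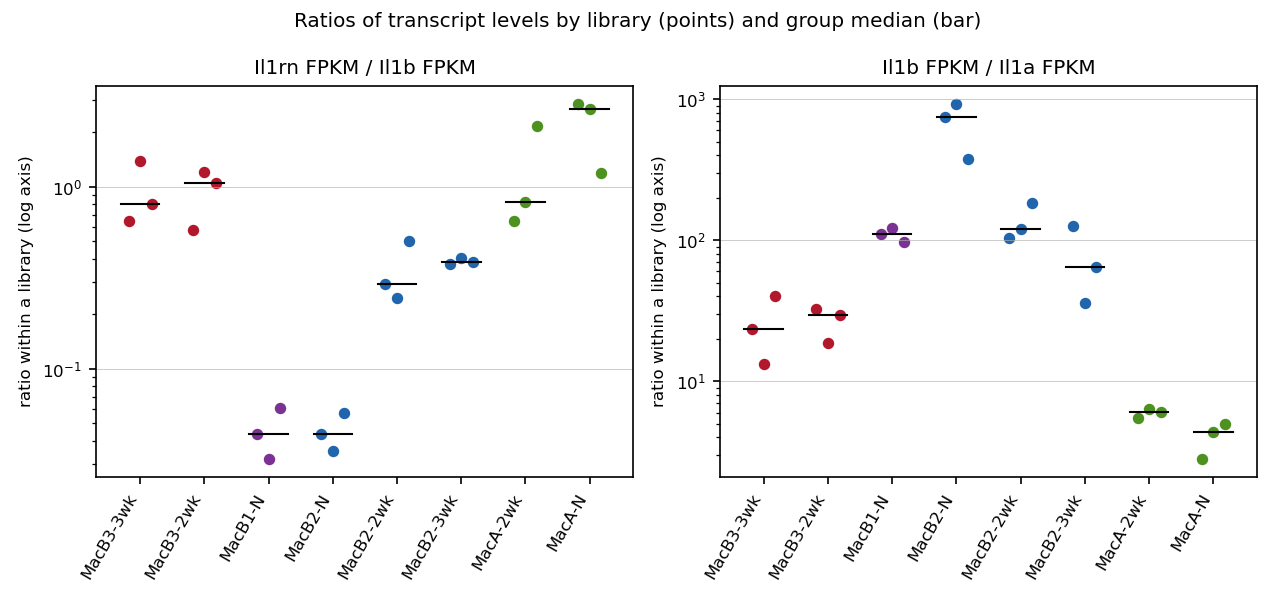
Ratio of Il1rn to Il1b (left) and of Il1b to Il1a (right), each from the FPKM of a single library, on log axes; points are libraries, bars group medians and colours populations. The Il1rn to Il1b ratio has a median of 0.387 in MacB2-3wk against 0.0435 in MacB2-N, and the Il1b to Il1a ratio is lowest in the MacA groups.

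Il1r2, the decoy receptor, was a transcript of the MacB populations. By group mean it was at 9.14 to 24.6 FPKM in the MacB groups and at 2.30 ± 0.89 FPKM in MacA-2wk and 1.96 ± 1.44 FPKM in MacA-N (SD, n = 3). MacB3-2wk had 24.3, 9.30 and 22.5 FPKM, against 1.60, 2.01 and 3.30 FPKM in MacA-2wk, a log2 fold change of 2.50 ± 0.53 (limma adjusted p = 0.00196). In naive lung MacB1-N had 19.3, 33.8 and 20.6 FPKM, against 0.354, 2.40 and 3.13 FPKM in MacA-N, a log2 fold change of 3.22 ± 0.53 (adjusted p = 1.10e-04). Neither pair overlapped, and both calls held in all 12 alternative fits. MacB2-N, with 9.37, 15.1 and 2.90 FPKM, was called higher than MacA-N (1.70 ± 0.53, adjusted p = 0.0213) although its lowest library lay below the highest MacA-N one. The adjusted p missed the threshold once MacA-N replicate 1 (0.132), MacB2-N replicate 1 (0.0708) or MacB2-N replicate 2 (0.117) was left out and in a fit of the compared groups alone (0.173), the range being 0.00348 to 0.173. With tumour, MacB2-3wk had 10.9, 16.7 and 31.3 FPKM and overlapped MacB2-N (1.13 ± 0.53, adjusted p = 0.149).

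Il1rap, the accessory protein shared by receptors of the family, was lowest by group mean in the MacB3 groups. MacB1-N, with 8.13, 7.74 and 4.35 FPKM, overlapped both of them. Il1rap had 5.32, 5.11 and 4.25 FPKM in MacB3-3wk, against 9.48, 11.8 and 11.8 FPKM in MacB2-3wk. These 2 groups did not overlap, and Il1rap was lower by a log2 fold change of -1.03 ± 0.24 (limma adjusted p = 0.0168), close to the minimum fold. The call was lost under quantile normalization (fold under 2), without MacB2-3wk replicate 2 (adjusted p = 0.0673), MacB2-3wk replicate 3 (0.0626) or MacB3-3wk replicate 3 (0.0842), in a range of 0.0168 to 0.0842. At 2 weeks it had 5.86, 4.66 and 3.73 FPKM in MacB3-2wk, against 8.39, 7.73 and 11.9 FPKM in MacB2-2wk. That difference of -0.84 ± 0.24 had an adjusted p of 0.0274 but a fold under 2, so it was not called. Against MacA-2wk, with 15.4, 17.4 and 16.7 FPKM, MacB3-2wk was lower by a log2 fold change of -1.62 ± 0.24 (adjusted p = 4.47e-05). MacA-2wk lay above every MacA-N library (7.22, 12.6 and 9.91 FPKM) without passing the test (0.71 ± 0.24, adjusted p = 0.221).

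Il18 was a transcript of the MacA cells, with every MacA library above every MacB library. It had 178, 164 and 147 FPKM in MacA-2wk, against 187, 241 and 221 FPKM in MacA-N, while the 18 MacB libraries lay between 3.17 and 17.8 FPKM. The MacA groups did not overlap each other, but their log2 difference of -0.40 ± 0.35 had an adjusted p of 0.736. Il18 was lower in MacB3-2wk than in MacA-2wk by a log2 fold change of -5.09 ± 0.35 (34.2-fold, limma adjusted p = 2.92e-09). In naive lung it was lower than in MacA-N by -4.19 ± 0.35 in MacB1-N (adjusted p = 2.10e-08) and by -4.03 ± 0.35 in MacB2-N (adjusted p = 2.93e-08), and these 3 calls held in all 12 alternative fits. Within the MacB cells tumour did not move it by the test: MacB2-3wk had 12.1, 17.5 and 12.1 FPKM and MacB2-2wk 5.06, 17.8 and 12.1 FPKM, against 15.2, 10.1 and 11.8 FPKM in MacB2-N.

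Il18 was lower in MacB3 than in MacB2 at both weeks, and both calls depended on the fit. MacB3-2wk had 3.41, 3.25 and 4.85 FPKM, against the MacB2-2wk values above, of which the lowest, 5.06 FPKM, lay just over the highest MacB3-2wk library. The log2 fold change was -1.25 ± 0.35 (limma adjusted p = 0.0252), with 0.0734 when replicate number was a block in the MacB libraries and 0.0344 when it was in all libraries. It was lost under quantile normalization (0.0529), in a fit of the compared groups alone (0.209), and without MacB2-2wk replicate 2 or 3 or MacB3-2wk replicate 1 or 2 (0.0751 to 0.144). MacB3-3wk had 5.73, 3.17 and 4.18 FPKM, without overlap with MacB2-3wk, a log2 fold change of -1.48 ± 0.35 (adjusted p = 0.0192) with 0.0702 under the MacB block and 0.0290 under that of all libraries. This call was lost in a fit of the compared groups alone (0.0577) and without MacB2-3wk replicate 2 (0.0938), MacB3-3wk replicate 2 (0.101) or MacB3-3wk replicate 3 (0.0700). Over all fits the adjusted p ran from 0.00256 to 0.209 at 2 weeks and from 0.0192 to 0.101 at 3 weeks.

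Il18bp, the soluble inhibitor of interleukin-18, ran the other way. It had 11.9, 20.8 and 12.99 FPKM in MacB3-2wk, against 2.22, 5.08 and 2.41 FPKM in MacB2-2wk. No library overlapped, and Il18bp was higher by a log2 fold change of 1.96 ± 0.40 (limma adjusted p = 0.00346), a call lost in 1 of 13 alternative fits, that of the compared groups alone (0.0523, in a range of 0.00168 to 0.0523). Against MacA-2wk, with 7.21, 6.52 and 4.43 FPKM, the log2 fold change was 1.18 ± 0.40 (adjusted p = 0.0412). That call held in 2 of 12 alternative fits. Leaving out any single library of either group ended it (adjusted p = 0.0522 to 0.158), as did the replicate block over all libraries (0.0567), a pseudocount of 0.1 (0.121), no filter (0.0632) and a fit of the compared groups alone (0.0658), with 0.0204 as the lowest. At 3 weeks MacB3-3wk had 5.34, 5.77 and 6.31 FPKM, below every MacB3-2wk library (log2 difference -1.22 ± 0.40, adjusted p = 0.262) and above every MacB2-3wk library (0.72 ± 0.40, adjusted p = 0.427). The ratio of Il18 to Il18bp in a library had a median of 0.286 in MacB3-2wk, against 3.51 in MacB2-2wk and 25.1 in MacA-2wk.

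**Figure D4:**
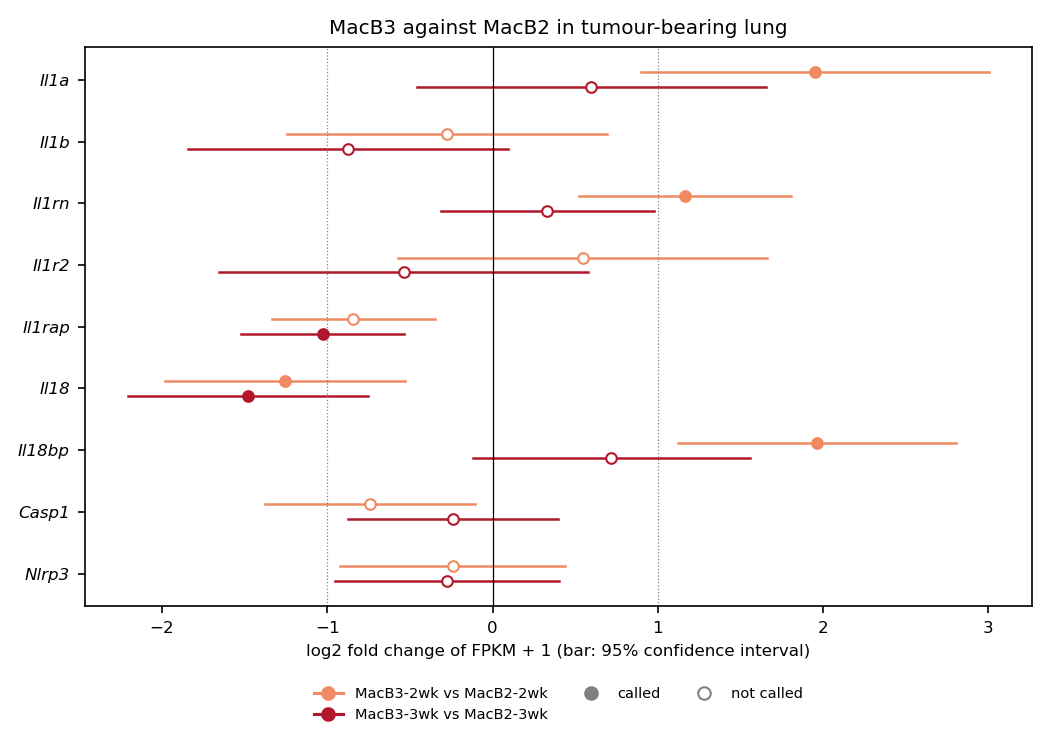
Log2 fold change of FPKM + 1 for the 9 members in MacB3-2wk against MacB2-2wk and MacB3-3wk against MacB2-3wk, with 95% confidence intervals; filled points were called. At 2 weeks Il1a, Il1rn and Il18bp are higher and Il18 lower in MacB3, and at 3 weeks Il1rap and Il18 are lower.

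Whether the change between weeks differed between MacB3 and MacB2 was tested for every member. No member was called, and neither was any other gene (0%), while 1 member, Il18bp, had an unadjusted p under 0.05 in limma (log2 difference -1.24 ± 0.57, adjusted p = 0.735). The members called at 2 weeks and not at 3 weeks are therefore not shown to differ in their week change. Several marker lists were lower in MacB3-2wk than in MacB2-2wk. The neutrophil sum was 157 to 392 FPKM in MacB3-2wk against 678 to 949 FPKM in MacB2-2wk (4 of 12 tested genes lower), and the fibroblast sum 21.9 to 56.6 against 118 to 166 FPKM (2 of 8 lower). The dendritic sum was 18.4 to 32.4 FPKM in MacB3-2wk against 52.6 to 74.3 FPKM in MacB2-2wk (4 of 8 lower), and the endothelial sum 52.6 to 84.8 against 159.9 to 469 FPKM (4 of 8 lower). Of the monocyte list 3 of 8 were lower, and of the epithelial list 2 of 7. The alveolar macrophage sum was 142 to 231 FPKM in MacB3-2wk against 432 to 472 FPKM in MacB2-2wk (3 of 8 lower, 1 higher). MacB2-2wk replicate 2, without which the Il1rn and Il18 calls at 2 weeks were lost, held the endothelial sum of 469 FPKM, against 159.9 and 178 FPKM in the other MacB2-2wk libraries. The Il1rn call was also lost without MacB3-2wk replicate 3, and that of Il18 without MacB2-2wk replicate 3 or MacB3-2wk replicate 1 or 2. In MacB3-3wk against MacB2-3wk 2 of 12 neutrophil and 2 of 8 dendritic genes were lower, 2 of 8 monocyte genes were higher and 2 lower, and 0 fibroblast, endothelial or epithelial genes were called in limma. Of 8 alveolar macrophage genes 1 was higher and 2 lower, with sums of 154 to 231 FPKM in MacB3-3wk and 178 to 375 FPKM in MacB2-3wk. The part of these markers in the member values was not tested.

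Casp1 and Nlrp3, the protease and the sensor of the inflammasome, varied least between groups. Casp1 had group means of 9.38 to 19.5 FPKM and was called in none of the 13 comparisons. It had 7.98, 13.5 and 12.7 FPKM in MacB2-3wk, against 18.7, 19.5 and 17.03 FPKM in MacB2-N, without overlap. That log2 difference of -0.68 ± 0.30 had a limma adjusted p of 0.127 (unadjusted 0.0378), in a comparison where 33.8% of all genes did not overlap. Nlrp3 had group means of 26.6 to 57.7 FPKM, with the highest library, 81.7 FPKM, in MacB2-N replicate 3. It had 27.01, 30.6 and 38.2 FPKM in MacB2-3wk, against 39.7, 51.6 and 81.7 FPKM in MacB2-N (log2 difference -0.78 ± 0.32, adjusted p = 0.0972). MacB2-N also lay above MacA-N, which had 19.04, 34.7 and 33.1 FPKM, by 0.95 ± 0.32 (adjusted p = 0.0332) with a fold of 1.94, below the minimum of 2. It was over that minimum without MacB2-N replicate 1 (1.19), MacA-N replicate 2 (1.10) or MacA-N replicate 3 (1.07), with an adjusted p of 0.0190 to 0.173 over all fits.

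**Figure D5:**
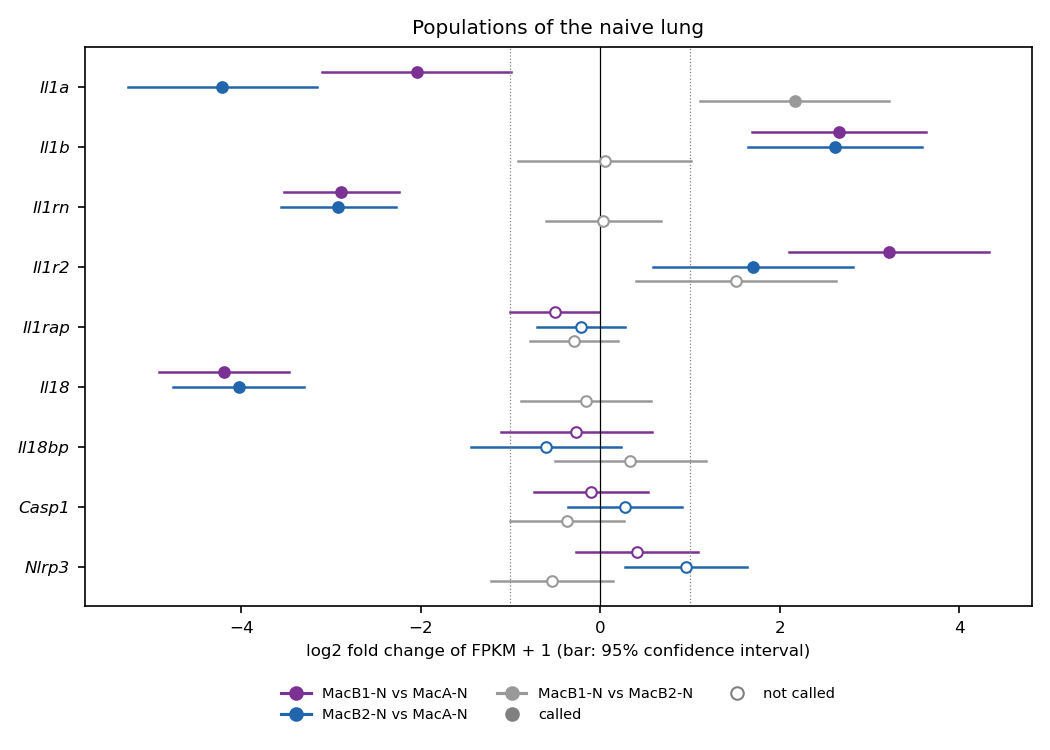
Log2 fold change of FPKM + 1 for the 9 members between populations of the naive lung, MacB1-N against MacA-N, MacB2-N against MacA-N and MacB1-N against MacB2-N, with 95% confidence intervals; filled points were called. Il1b and Il1r2 are higher and Il1a, Il1rn and Il18 lower in both MacB groups than in MacA-N, while Il1a is the 1 member called between MacB1-N and MacB2-N.

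Genes around the members were counted in 3 further lists. Of 16 genes for receptors and signalling of this family, 4 rose in MacB2-3wk against MacB2-N, where 9.67% of all genes rose, with a list median log2 difference of -0.11, against 0 for all genes. They were Il1r1, the signalling receptor, at 12.6 ± 1.74 against 1.03 ± 0.72 FPKM, and Il33, a family ligand, at 17.01 ± 6.08 against 1.23 ± 1.40 FPKM. The others were Il1rl1, the receptor of interleukin-33, at 48.2 ± 21.96 against 2.47 ± 4.05 FPKM, and Il18rap, an interleukin-18 receptor subunit, at 14.6 ± 3.49 against 1.69 ± 0.67 FPKM (SD, n = 3; limma adjusted p = 4.30e-05 to 0.00202). Of the marker sums given above, those of fibroblasts and neutrophils were also higher in MacB2-3wk than in MacB2-N, and the others were lower. Without Mmp9 the neutrophil sums overlapped. The part of these markers in the 4 genes was not tested. Il1r1 also rose in MacB2-2wk (4.72 ± 1.09 FPKM, adjusted p = 0.0442), as 1 of 16 beside 1.66% of all genes, and 0 of 16 were called in MacA-2wk against MacA-N. Il1rl2, the interleukin-36 receptor, was lower in MacB2-N, at 1.30 ± 0.70 FPKM, against 26.7 ± 0.67 FPKM in MacA-N (adjusted p = 4.79e-07). In that comparison 3 of 16 were higher and 1 lower, beside 10.7% and 10.2% of all genes.

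Of 20 other inflammasome genes, 18 were tested. In MacB2-3wk against MacB2-N 0 rose and 3 fell, beside 9.67% and 5.04% of all genes. They were Naip6 (5.48 ± 1.03 against 20.0 ± 5.41 FPKM) and Naip5 (3.71 ± 1.36 against 9.07 ± 2.84 FPKM), sensors of bacterial proteins, and Panx1 (9.93 ± 2.34 against 31.3 ± 10.3 FPKM), a channel protein (limma adjusted p = 9.99e-05 to 0.00938). The list median was -0.53, against 0 for all genes. Naip5 and Naip6 are closely related copies that can share reads. None of the 18 was called in MacB2-2wk against MacB2-N or in MacA-2wk against MacA-N. Mefv, which encodes pyrin, was lower in MacB3 than in MacB2 at both weeks, at 15.5 ± 2.15 against 50.7 ± 3.12 FPKM at 2 weeks (adjusted p = 8.08e-05) and 10.6 ± 2.76 against 33.9 ± 6.99 FPKM at 3 weeks (adjusted p = 2.48e-04). It was at 46.4 ± 7.01 FPKM in MacB2-N, against 0.148 ± 0.09 FPKM in MacA-N, and Ninj1, which acts in membrane rupture, was at 278 ± 50.4 against 18.5 ± 1.30 FPKM. In that comparison 5 of 18 were higher and 1 lower, beside 10.7% and 10.2% of all genes.

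Of 16 inflammatory genes known to be inducible by NF-kB, 3 rose in MacB2-3wk and 2 in MacB2-2wk against MacB2-N, where 9.67% and 1.66% of all genes rose. Cxcl3 was at 274 ± 172 FPKM in MacB2-3wk and 50.5 ± 17.8 FPKM in MacB2-2wk, against 2.45 ± 1.62 FPKM in MacB2-N, and Cxcl1, also a neutrophil-attracting chemokine, at 100.2 ± 35.1 and 27.4 ± 12.96, against 4.11 ± 1.52 FPKM. Cxcl2 was at 711 ± 377 FPKM in MacB2-3wk, against 184 ± 68.9 FPKM (limma adjusted p = 0.00876). In MacA-2wk against MacA-N, where 0.729% of all genes rose, 2 of 16 did, Bcl3 (85.3 ± 25.2 against 29.7 ± 1.63 FPKM, adjusted p = 0.00728) and Cxcl1 (47.3 ± 29.4 against 12.2 ± 2.34 FPKM, adjusted p = 0.0373), and the list median was 0.51, against 0.05 for all genes. In MacB3-2wk against MacB2-2wk, Tnf (113 ± 11.6 against 50.3 ± 6.62 FPKM) and Cxcl3 were higher, and Nfkb1 and Bcl3 lower, beside 3.15% higher and 4.21% lower of all genes. In MacB2-N against MacA-N 7 of 16 were higher and 3 lower (10.7% and 10.2% of all genes), among them Ptgs2 (96.9 ± 15.5 against 4.49 ± 2.39 FPKM), the inducible prostaglandin synthase, and in MacB1-N against MacA-N 10 were higher and 2 lower (15% and 8.71%).

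Genes with the most similar pattern were sought by Pearson r over the 8 group means of log2(FPKM + 1), among 5708 protein-coding candidates averaging 20 FPKM or more in some group. The group means come from the same libraries for member and candidate, so r is a description. For Il1b the nearest were Nfkbie (r = 0.980), Crk (0.971) and Tmem243 (0.967), and for Il18 they were Qsox1 (0.990), Serpinb1a (0.990) and Rab18 (0.986). For Il1rn they were Ptges3 (0.973), Timm10 (0.967) and Ubl4 (0.964).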

How the data were processed

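The table deposited by the authors held 1 row per gene and 1 column of FPKM per library. Per the submitters' processing notes, reads were checked with FastQC, aligned to mm10 with TopHat2 version 2 and turned into FPKM with Cufflinks 2.0.2. The header named no unit, and the loci in the table did not match GRCm38 for 7 of the 9 members, so positions were taken from GENCODE M21 by Ensembl identifier. The values were used without rescaling as log2(FPKM + 1), a scale that understates the change of low genes. The 17156 genes averaging 1 FPKM or more in some group entered a single fit of all 24 libraries in limma 3.58.1 under R 4.3.3, which estimated a mean for each group, leaving 16 residual degrees of freedom, with a variance trend. There were 11 pairwise comparisons and 2 differences of differences, and Benjamini-Hochberg adjustment covered all tested genes within each. The script was tested on simulated data.

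The members, lists and comparisons were chosen with earlier results of these data known. From each list and comparison at most 4 called genes with the smallest adjusted p were named, and the 3 nearest patterns for Il1b, Il1rn, Il18 and Casp1, of which those for Casp1 are not reported here. The design text calls the MacB3 group of 2 weeks by the name of 3 weeks, and the titles were followed. In the MacB libraries replicates 1, 2 and 3 were run on lanes 2, 3 and 7 per the labels, so the number marks a shared lane. Deviations of same-numbered MacB libraries had a median correlation of 0.00119 (-0.0726 to 0.210, 45 pairs). Alternatives were another pseudocount, no filter, quantile and upper-quartile scaling, a fit of the compared groups alone, a block on replicate number and leaving out each library.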

Additional observations from a re-analysis of the deposited data

Results flagged for a closer look

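The response of Il1rn to tumour at 2 weeks differed between MacB2 and MacA cells. It was 2.79 on the log2 scale in MacB2-2wk against MacB2-N and 0.27 in MacA-2wk against MacA-N, and the difference of 2.52 ± 0.43 passed the test of the difference itself (limma adjusted p = 0.0185). The call was lost in 4 of 18 alternatives: a fit of the compared groups alone (adjusted p = 0.103), and without MacA-N replicate 2 (0.0554), MacB2-2wk replicate 1 (0.0501) or MacB2-2wk replicate 3 (0.0621), in a range of 0.00777 to 0.103. Il1rn was higher in 3 of 3 MacB2-2wk libraries than in every MacB2-N library. The run lanes of both populations differ, and population and lane cannot be told apart. Within each population the tumour and naive libraries were run on the same lanes. Tumour and lobe cannot be told apart in either response.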

How the results depend on the processing

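The number of members called was within 1.5 times of that reported in every comparison and alternative, except the following. For MacB2-2wk against MacB2-N it was 2 with a pseudocount of 0.1 and 0 in a fit of the compared groups alone, in place of 1. For MacB3-2wk against MacB2-2wk it was 2 under quantile normalization, 1 in a fit of the compared groups alone and 2 with the replicate block in the MacB libraries, in place of 4, and 2 to 4 with 1 library left out. For MacB3-3wk against MacB2-3wk it was 1 under each of these 3, in place of 2, and 0 to 2 with 1 library left out, being 0 without MacB2-3wk replicate 2 or MacB3-3wk replicate 3. For MacB1-N against MacB2-N it was 0 to 1 with 1 library left out. For the MacB2 minus MacA difference it was 0 in a fit of the compared groups alone and 0 to 1 with 1 library left out, in place of 1. The lost calls are named beside their genes, and the cause was not tested. Over single members and alternatives 315 results kept direction and side of the threshold, 44 lost the call, 6 gained one and 0 reversed. These numbers cover only a member and comparison with a call in at least 1 fit. Differences called in no fit were left out. The fit of the MacB libraries with the replicate block lost the calls of Il1rn and Il18 in MacB3-2wk against MacB2-2wk and of Il18 in MacB3-3wk against MacB2-3wk. These held with the block over all libraries. The MacB fit also left out the MacA libraries and was not run without the block, so both changes cannot be told apart. The block over all libraries ended that of Il18bp in MacB3-2wk against MacA-2wk. Neither of these fits with a block lost another call of a member.

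Quantile normalization shifted the median log2 difference of all genes by -0.147 in MacB1-N against MacA-N and by -0.111 in MacB1-N against MacB2-N. The share of higher genes among those called was 47.2% under quantile normalization and 63.2% as reported for MacB1-N against MacA-N, and 50.1% and 67.3% for MacB1-N against MacB2-N. In the same order it was 74.6% and 87.9% for MacB2-2wk against MacB2-N, 52.7% and 65.7% for MacB2-3wk against MacB2-N, 56.2% and 42.8% for MacB3-2wk against MacB2-2wk, and 77.8% and 88.9% for MacB3-3wk against MacB3-2wk. FPKM carry no count, so no counting error could be given, and 3 libraries a group limit each comparison.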
